A study of Mus musculus with 12 samples.

Results

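The genes described here are the transcriptional effectors of the Hippo pathway and a set of their targets. They are the coactivator genes Yap1 and Wwtr1, the 4 DNA-binding partner genes Tead1 to Tead4, and the target genes Ankrd1, Amotl2, Lats2 and Axl. The 10 genes are a list of names, with no threshold on a measured value, out of 21627 protein-coding genes on chromosomes 1 to 19 and X. The cells were mouse embryonic fibroblasts (MEF), the matrix-forming cells that grow out when embryo tissue is put in culture. They were either wild type (WT) or fbxw7 knockout (KO). The labels do not give the allele, the way the gene was deleted or the number of embryos or clones behind a genotype. Each genotype was profiled by Cut & Run: a nuclease tethered through an antibody cuts out the DNA around the bound protein or mark, and that DNA is sequenced. Antibodies against MLL4, H3K4me1 and H3K4me3 gave 2 libraries each per genotype, 12 in all. Every library was deposited as a list of peaks, the stretches where fragments pile up above the local background.

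In the Hippo pathway, a kinase cascade ending in Lats1 and Lats2 phosphorylates the coactivators Yap (Yap1) and Taz (Wwtr1), which keeps them out of the nucleus. When the kinases are inactive, as in spread cells on a stiff surface, the coactivators enter the nucleus and bind Tead proteins, which recognise the sequence GGAATG. They act largely at distal enhancers, whose flanks carry H3K4me1, while H3K4me3 marks the promoters of active genes. In cultured fibroblasts Yap and Taz are known as major regulators of growth, adhesion and matrix genes. Fbxw7 is an F-box protein that selects proteins for ubiquitination by an SCF ligase, and MLL4 (Kmt2d) is a methyltransferase that deposits H3K4me1 at enhancers.

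The promoter sequences are shown because the Tead recognition sequence recurred in them. RefSeq start sites (GRCm38.p6, the build with mm10 coordinates) were listed for 8 of the 10 genes, and Tead1 and Tead4 had no entry. The 250 bases before each start were searched for GGAATG on both strands (CATTCC on the printed strand is the same site on the other), and capitals mark the matches. Sequences run 5′ to 3′ on the gene's strand.
Ankrd1 (chr19:36119845-36120094, minus strand): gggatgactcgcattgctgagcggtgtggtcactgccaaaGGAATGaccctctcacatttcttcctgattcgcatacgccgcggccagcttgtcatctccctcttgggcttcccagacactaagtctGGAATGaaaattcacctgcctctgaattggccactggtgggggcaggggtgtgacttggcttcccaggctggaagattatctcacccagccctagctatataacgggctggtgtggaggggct
Amotl2 (chr9:102717554-102717803, plus strand): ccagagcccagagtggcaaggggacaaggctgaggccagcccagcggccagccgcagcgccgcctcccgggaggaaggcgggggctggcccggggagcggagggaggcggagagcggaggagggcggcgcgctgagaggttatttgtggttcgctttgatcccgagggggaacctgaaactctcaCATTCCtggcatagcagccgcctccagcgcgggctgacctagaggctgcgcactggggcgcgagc
Axl (chr7:25788734-25788983, minus strand): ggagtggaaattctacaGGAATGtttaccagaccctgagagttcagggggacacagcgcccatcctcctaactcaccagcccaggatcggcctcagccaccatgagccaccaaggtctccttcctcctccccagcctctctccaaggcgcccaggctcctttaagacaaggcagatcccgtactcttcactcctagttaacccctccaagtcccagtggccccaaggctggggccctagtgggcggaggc
Yap1 (chr9:8004597-8004846, minus strand): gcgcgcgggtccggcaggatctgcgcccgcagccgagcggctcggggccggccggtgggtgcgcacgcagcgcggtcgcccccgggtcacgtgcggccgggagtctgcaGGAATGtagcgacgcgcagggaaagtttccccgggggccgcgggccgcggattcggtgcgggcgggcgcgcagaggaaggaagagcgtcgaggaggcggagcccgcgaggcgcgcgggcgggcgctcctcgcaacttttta
Wwtr1 (chr3:57575911-57576160, minus strand): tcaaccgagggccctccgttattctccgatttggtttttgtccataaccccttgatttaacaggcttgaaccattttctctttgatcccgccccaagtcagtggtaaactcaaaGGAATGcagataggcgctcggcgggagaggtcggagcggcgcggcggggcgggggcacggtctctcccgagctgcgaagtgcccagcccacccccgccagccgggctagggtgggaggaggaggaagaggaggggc
Tead3 (chr17:28350601-28350850, minus strand): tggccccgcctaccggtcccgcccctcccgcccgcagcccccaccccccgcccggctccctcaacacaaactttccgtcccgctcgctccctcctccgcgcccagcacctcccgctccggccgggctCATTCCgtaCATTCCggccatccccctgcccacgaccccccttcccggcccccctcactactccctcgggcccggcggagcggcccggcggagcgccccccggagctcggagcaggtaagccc

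A match was present at 6 of the 8 genes, against 13.3% of the 17273 protein-coding genes with a listed start. Ankrd1 held 2 matches, 210 and 123 bases before its start. The Amotl2 match lay 65 bases before the start, that of Yap1 141, that of Axl 233 and that of Wwtr1 136. Tead3 has 3 listed starts, and the one shown held a pair of matches 123 and 114 bases before it. A further Tead3 start had 1 match 182 bases before it, inside an H3K4me3 peak in 2 libraries, both WT. Tead2 and Lats2 had none in this window. The AP-1 sequence TGANTCA, searched the same way on both strands, was in none of the 8 and in 7.25% of all genes with a listed start. A match describes letters only. In the H3K4me3 lists, the Wwtr1 match lay under a peak in 2 libraries, both WT, the Axl match in 3 and the Amotl2 match in 1. Both matches of the Tead3 start shown lay under a peak in 1 library. The Yap1 and both Ankrd1 matches lay under none, and no match lay under an H3K4me1 peak in any library.

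The promoters also differed in CpG number, a base composition that goes with H3K4me3 across genes. The 250 bases held 44 CpG at Yap1, 31 at the upstream start of Lats2, 28 at the Tead3 start shown, 21 at Amotl2 and 18 at Wwtr1, but 7 at Tead2, 7 at Ankrd1 and 5 at Axl. Among all genes with at most 7 CpG at every listed start, 20.1% carried an H3K4me3 peak in WT replicate 2, against 91.5% of genes with 24 or more. Tead2 and Axl carried the mark in all 4 libraries despite few CpG, and Ankrd1 had a peak in 1.

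Depth, as fragments after duplicate filtering, was 4435103 to 13627038 over the 12 libraries. The H3K4me3 library of WT replicate 1 was the deepest of its mark at 11319701 fragments, against 5519477 to 6185767 in the other 3, so WT replicate 2 is the library closest in depth to the KO libraries. As a check of the cell type, all 13 fibroblast markers, such as Col1a1, Thy1 and Pdgfrb, had H3K4me3 over the gene plus 1 kb in at least 1 library. So did 13272 of all 21627 protein-coding genes. The peak was in all 4 libraries at 6 of the 13, while Pdgfra and Twist2 had it in both WT and neither KO library. Of 21 markers of blood, endothelial, epithelial, pluripotent, neural and muscle cells, 16 had none in any library, among them Ptprc, Pecam1, Pou5f1 and Myod1. Spi1, Tubb3 and Map2 had H3K4me3 in both WT and neither KO library. In H3K4me1, 11 of the 13 fibroblast markers and 11 of the 21 others had a peak, against 12778 of the 21627 genes. With 2 libraries against 2, the exact two-sided permutation test over libraries cannot give a p below 0.33, so no difference between genotypes below could pass 0.05. The labels leave unsaid if replicates were separate cultures, so their spread may be technical.

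H3K4me3 was present at 9 of the 10 genes in both WT libraries, and the peaks were shorter or missing in both KO libraries at all 9. The share of all genes with a peak in both WT libraries was not counted. In each gene plus 1 kb on either side, the length covered by peaks was summed per library. At every gene but Ankrd1, both KO values lay below both WT values. That pattern was general: of 13272 genes with a peak there in any library, 93.5% showed it, so the count of 9 of 10 is close to the background. All 4 libraries had a peak at 7 of the 10 genes, against 68.1% of genes measured, and 1 gene, Wwtr1, was WT-only (a peak in both WT and neither KO library), against 12.6%. None was KO-only or covered further in KO, as for 0 and 0.0301% of genes. The number of peaks was smaller in both KO libraries at 3 genes, Wwtr1, Tead3 and Axl, against 21.7% of genes. At Axl the extra WT peak was the edge of one over a neighbouring gene, and the promoter had 1 peak in every library. The KO mean was a median 25.1% of the WT mean over the 10 genes, and 35.5% over the 13260 genes with WT coverage (quartiles 15.7 and 52.4%). Of the 10 genes, 7 lay below that median.

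**Figure D1:**
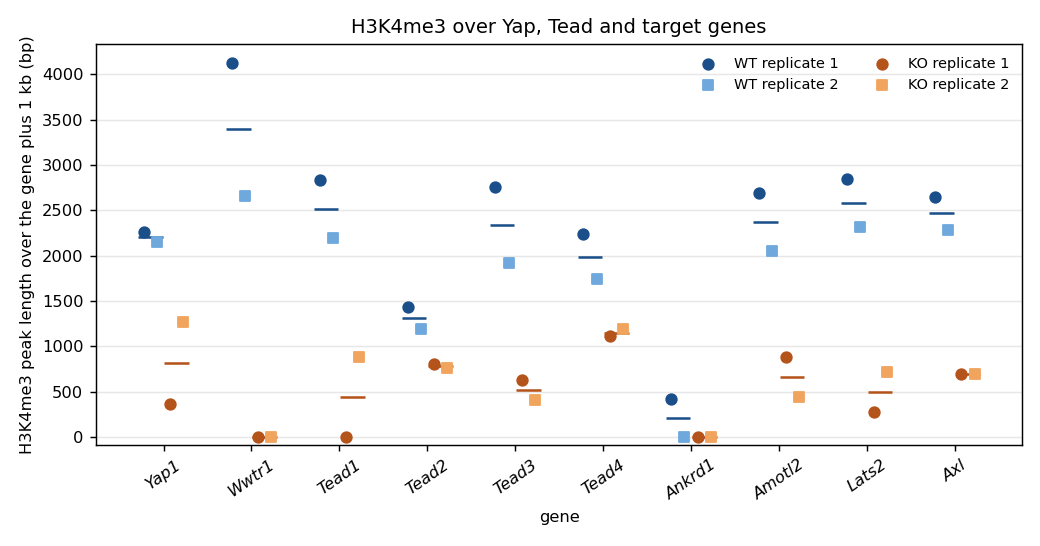
H3K4me3 peak length over each gene plus 1 kb (bp, vertical axis) by gene, with 1 point per library and a bar at the mean of each genotype (n = 2). At 9 genes both WT points lie above both KO points, Wwtr1 has no KO peak, and Ankrd1 has 1 short peak in WT replicate 1.

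The coactivator genes differed from each other in what was left in KO. Yap1 (mm10, chromosome 9, 7931999 to 8004638) had a single H3K4me3 peak in every library, of 2261 and 2150 bp in WT replicates 1 and 2 and 360 and 1268 bp in KO replicates 1 and 2. The KO libraries were thus far apart, and both were below WT. The KO mean was 36.9% of WT (2205.5 ± 78.5 against 814 ± 642 bp, SD, n = 2 each, exact permutation p = 0.33). Wwtr1, which encodes Taz (chromosome 3, 57455644 to 57575910), had 4126 and 2654 bp in WT and no peak in either KO library (exact permutation p = 0.33), the widest gap in bp among the 10 genes.

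The Wwtr1 promoter peak of WT spanned 57573462 to 57576451, with a −log10 q of 28.9 in WT replicate 1 and 8.06 in WT replicate 2. In WT replicate 2 it stood only at the 19.4th percentile of that library's peaks by strength. With lists cut to the 10397 strongest peaks each, the length of the shortest list, Wwtr1 kept 2990 bp in WT replicate 1 and had no peak in the other 3 libraries, so the WT-only call rested on a weak peak. Wwtr1 also carried H3K4me3 inside the gene in WT, at 57470600 to 57471106 in both libraries, and at 57487694 to 57488322 in WT replicate 1. These sites lay about 105 and 87.9 kb downstream of the start, and both overlapped H3K4me1 regions.

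Among the Tead genes, whose products bind DNA and carry the coactivators, the KO share of the WT length was highest at Tead2 and Tead4 and lowest at Tead1 and Tead3. Tead1 (chromosome 7, 112679356 to 112906784) had 2834 and 2192 bp in WT, no peak in KO replicate 1 and 879 bp in KO replicate 2. Its KO mean was 17.5% of WT (exact permutation p = 0.33). Tead3 (chromosome 17, 28331671 to 28350805) had 2752 and 1914 bp in WT and 629 and 410 bp in KO, 22.3% of WT. A Tead3 region at the most upstream start was WT-only: in WT replicate 1 the peak, at 28350554 to 28351417, spanned the start, and in WT replicate 2 it lay just upstream, at 28350936 to 28351272. By contrast, the longer region inside the gene was in all 4 libraries.

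Tead2 (chromosome 7, 45215792 to 45233468), the shortest of the 4, had 1438 and 1188 bp in WT and 805 and 762 bp in KO. The KO mean was 59.7% of WT, above the value of 84.5% of the genes with WT coverage. Tead4 (chromosome 6, 128227143 to 128300813) had 2234 and 1740 bp in WT and 1113 and 1192 bp in KO, 58.0% of WT. The KO replicates lay close together at both genes, while the WT replicates of Tead4 were 1740 and 2234 bp. The groups did not overlap, and the exact permutation p was 0.33 for each. Part of the Tead4 value in WT replicate 1 was a second peak of 389 bp inside the gene.

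Of the target genes, Amotl2, Lats2 and Axl had an H3K4me3 peak over the gene plus 1 kb in all 4 libraries. Ankrd1 had one only in WT replicate 1. Amotl2 encodes a junction protein that binds and restrains Yap (chromosome 9, 102717091 to 102733418). It had 2691 and 2052 bp in WT and 883 and 445 bp in KO, 28.0% of WT. Lats2 encodes the pathway kinase, which is itself induced by Yap (chromosome 14, 57689662 to 57746212). Its values were 2840 and 2311 bp in WT and 273 and 719 bp in KO, 19.3% of WT. The region also overlaps the neighbouring gene Gm52140.

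Axl, a receptor tyrosine kinase gene (chromosome 7, 25756500 to 25788924), had 2644 and 2286 bp in WT and 691 and 690 bp in KO, 28.0% of WT. The WT values include the edge of a peak over the neighbouring gene Hnrnpul1, and the Axl promoter peaks alone measured 2210 and 1762 bp in WT. In KO the promoter peak was the whole value, so for the promoter alone the KO mean was 34.8% of WT. Within the WT lists the promoter peaks ranked at the 82.7th and 87.6th percentiles by −log10 q, and within the KO lists at the 12.5th and 23.7th. The exact permutation p was 0.33 at each of these 3 genes.

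Ankrd1, a muscle ankyrin repeat gene widely used as a Yap readout (chromosome 19, 36111965 to 36119844), had a single H3K4me3 peak of 418 bp in WT replicate 1. It was weak (−log10 q 5.96, 8.23th percentile) and lay 2062 to 2479 bases downstream of the start. The other 3 libraries had no H3K4me3 peak over the gene (exact permutation p = 1).

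Ordered by the WT mean, the genes ran Wwtr1, Lats2, Tead1, Axl, Amotl2, Tead3, Yap1, Tead4, Tead2 and Ankrd1, from 3390 to 209 bp. From Wwtr1 to Tead4 each gene overlapped the next in its WT libraries, while Tead4 and Tead2, and Tead2 and Ankrd1, did not overlap. In KO the order was Tead4, Yap1, Tead2, Axl, Amotl2, Tead3, Lats2 and Tead1, with Wwtr1 and Ankrd1 at 0. There the only neighbours that did not overlap were Tead2 and Axl.

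**Figure D2:**
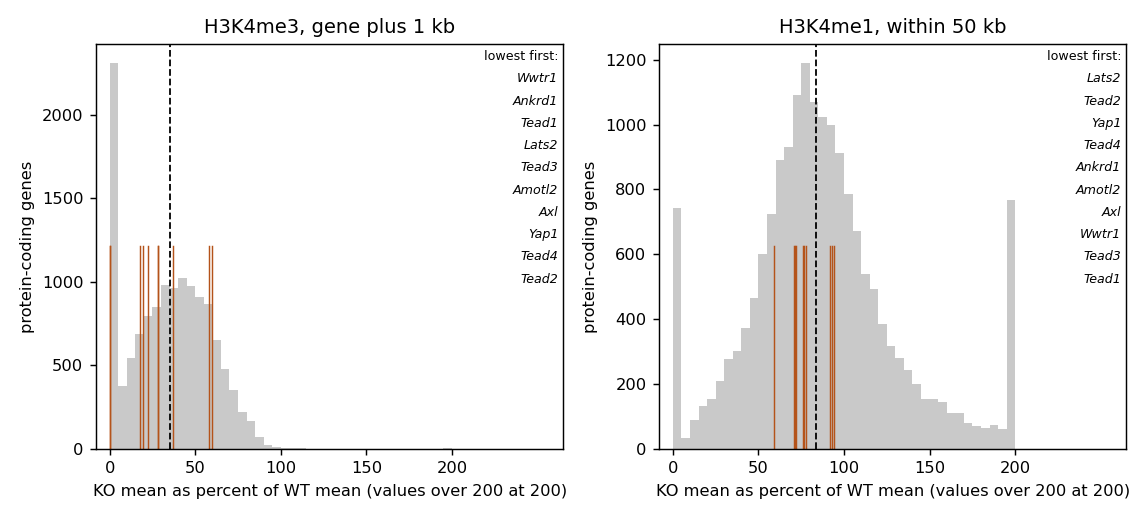
Distribution over protein-coding genes of the KO mean covered length as a percent of the WT mean (horizontal axis, grey bars count genes, dashed line the median), for H3K4me3 over the gene plus 1 kb (left) and H3K4me1 within 50 kb (right). Orange lines mark the 10 genes, listed lowest first; they run from 0 to 59.7% on the left and from 59.0 to 94.1% on the right.

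With lists of equal length, both KO values still lay below both WT values at 8 of the 9 genes with a peak, against 83.9% of 11574 genes measured, and Wwtr1 left the group. A peak in all 4 libraries was present at 7 genes (72.1% of genes measured), and 0 were WT-only (3.46%). The median KO share was then 30.0% over the 9 genes with WT coverage and 44.1% over all such genes. The comparison with WT replicate 2 alone, of similar depth, gave 1.51 times the KO mean at Tead4, 1.52 at Tead2, 2.64 at Yap1 and 3.09 at Amotl2. It gave 3.31 at Axl (2.55 for its promoter alone), 3.68 at Tead3, 4.66 at Lats2 and 4.99 at Tead1. Similar depth did not make the lists alike. WT replicate 2 had 16078 peaks with a median −log10 q of 17.5, and KO replicates 1 and 2 had 10397 and 11281 with 6.4 and 6.94. This ratio was not computed over all genes, so the values cannot be read as particular to these genes.

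Most of the H3K4me3 length near the listed starts in KO lay downstream of them, with Axl in KO replicate 1 as the exception (356 bp upstream and 335 bp downstream). For the 8 genes with a listed start, the most upstream one was used. In WT replicate 1, a peak covered the start of 6 of the 8 genes, in WT replicate 2 that of Axl and Wwtr1, in KO replicate 1 that of Axl, and in KO replicate 2 none. Over all genes with H3K4me3 from 2 kb upstream to 3 kb downstream, the start was covered in 78.0 and 65.3% in WT and in 23.3 and 26.7% in KO.

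At Yap1 the WT peaks began 109 and 247 bases past the start and ended 2369 and 2396 bases past it, and the KO peaks spanned 405 to 764 and 852 to 2119. At Amotl2 the KO peaks spanned 620 to 1108 and 1603 to 1996 bases past the start in replicate 1, and 1867 to 2311 in replicate 2. Lats2 had peaks upstream of its start in both WT libraries, reaching 727 and 611 bases before it, and in KO only between 653 and 1889 bases past it. Among the genes with a peak, the downstream share of the covered length was 82.9 and 88.2% in WT and 90.2 and 100% in KO, against 69.6 and 71.4% in WT and 78.2 and 77.5% in KO over all genes.

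**Figure D3:**
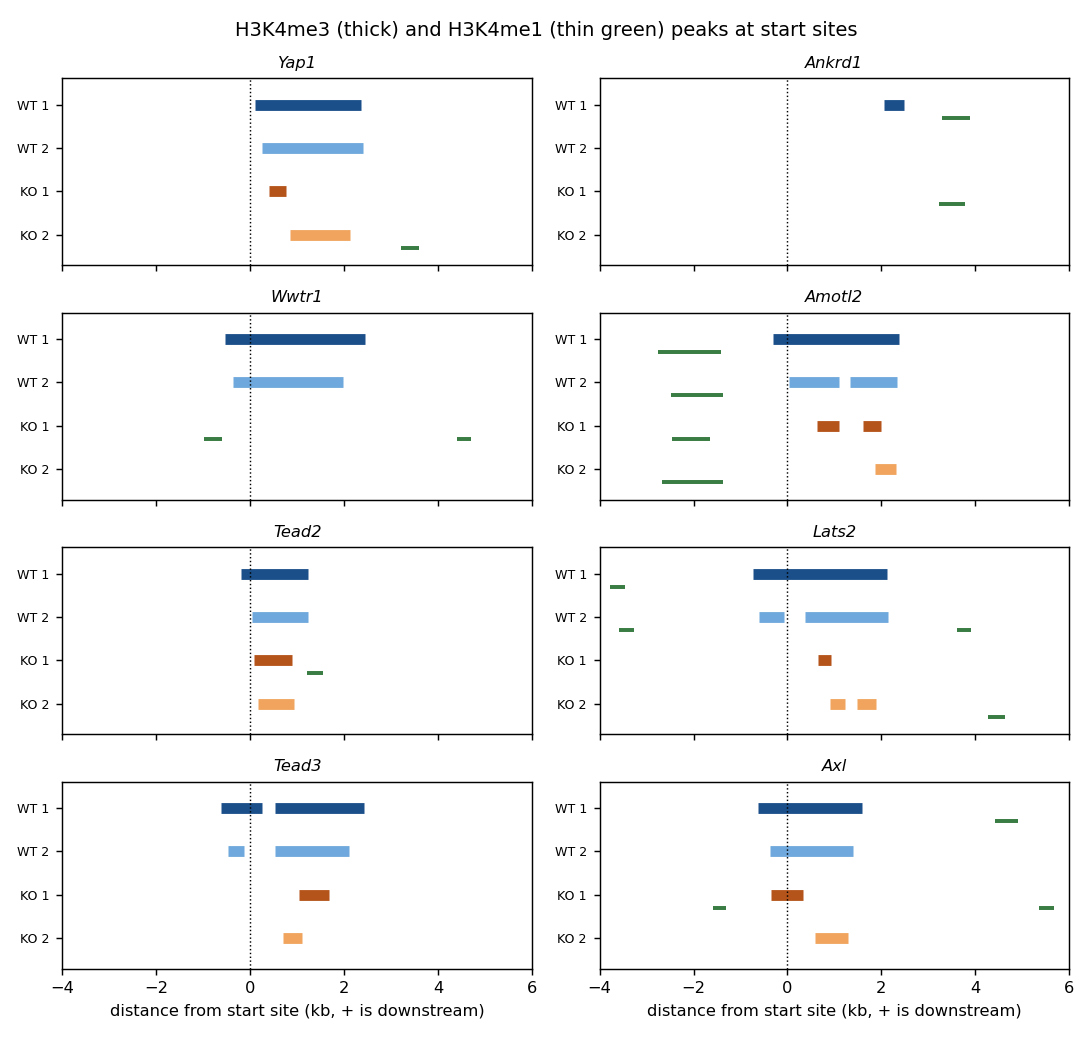
Peaks around the most upstream RefSeq start site of the 8 genes with an entry; the horizontal axis is the distance from the start (kb, positive downstream) and each row is 1 library, with thick bars for H3K4me3 and thin green bars for H3K4me1. The KO bars of H3K4me3 are shorter and lie downstream of the dotted start line except at Axl in KO replicate 1, and the H3K4me1 bar upstream of Amotl2 is present in all 4 libraries.

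H3K4me1 around the genes was present in both genotypes and differed less between them than H3K4me3. Over the gene plus 1 kb, 7 of the 10 genes had an H3K4me1 peak in all 4 libraries, against 51.8% of 12778 genes measured, and none was WT-only (4.7% of genes) or KO-only (2.75%). Covered length was lower in both KO libraries at Wwtr1, Amotl2 and Lats2 (3 of 10, against 26% of genes) and higher at Tead3 (1 of 10, against 12.4%). Wwtr1 had 7020 and 7321 bp in WT and 5107 and 5799 bp in KO. Tead3 had 395 and 446 bp in WT and 961 and 601 bp in KO. At both genes the groups did not overlap, with an exact permutation p of 0.33.

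Tead1, the longest of the genes, had 23 and 15 H3K4me1 peaks over its body in WT and 14 and 16 in KO. Their length was 9549 and 8467 bp in WT and 8386 and 9536 bp in KO, so the groups overlapped (99.5% of WT, exact permutation p = 0.667). Tead2 had none in 3 libraries and 1 peak of 344 bp in KO replicate 1. By presence over the gene in the 8 histone libraries, Yap1, Tead3, Tead4, Amotl2 and Lats2 were identical, with both marks in every library. Singly, H3K4me3 was in all 4 libraries at 68.1% of genes measured and H3K4me1 at 51.8%. The share of all genes with both was not counted, so this likeness cannot be called unusual. Tead1 matched each of them in 7 of the 8 libraries. Wwtr1 and Tead1 matched in 7, as did Tead2 and Axl, and no other pair reached 7.

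Within 50 kb of the gene on either side, the density of H3K4me1 differed among the genes. To compare genes of different length, covered length was divided by the window length. Summed over the windows of all genes, the value was 18.1 and 16 bp per kb in WT and 16 and 13.5 in KO. Above it in all 4 libraries were 7 genes (Yap1, Wwtr1, Tead1, Tead3, Amotl2, Lats2 and Axl), and Tead2 and Tead4 were below it in all 4. The share of all genes above that value was not counted, so the 7 cannot be called unusual. Amotl2 was the densest of the 10 in both genotypes, at 74.3 and 75.6 bp per kb in WT and 57.7 and 57.1 in KO. In WT, Lats2 (53.1 and 43.1) and Wwtr1 (46.8 and 44.7) overlapped each other, and neither overlapped Amotl2. Tead1, Axl, Tead3, Yap1, Ankrd1, Tead4 and Tead2 followed in that order of WT means, Tead2 with 4.77 and 3.93 in WT. Its KO libraries had 6.16 and 0. Among these the neighbours that did not overlap in WT were Tead3 and Yap1, Ankrd1 and Tead4, and Tead4 and Tead2. In KO the order was Amotl2, Wwtr1, Tead1, Tead3, Axl, Lats2, Yap1, Ankrd1, Tead4 and Tead2, where Amotl2 and Wwtr1, and Wwtr1 and Tead1, did not overlap. The windows hold other genes as well, from 0 at Amotl2 to 8 at Tead2, so a peak there need not belong to the gene named.

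**Figure D4:**
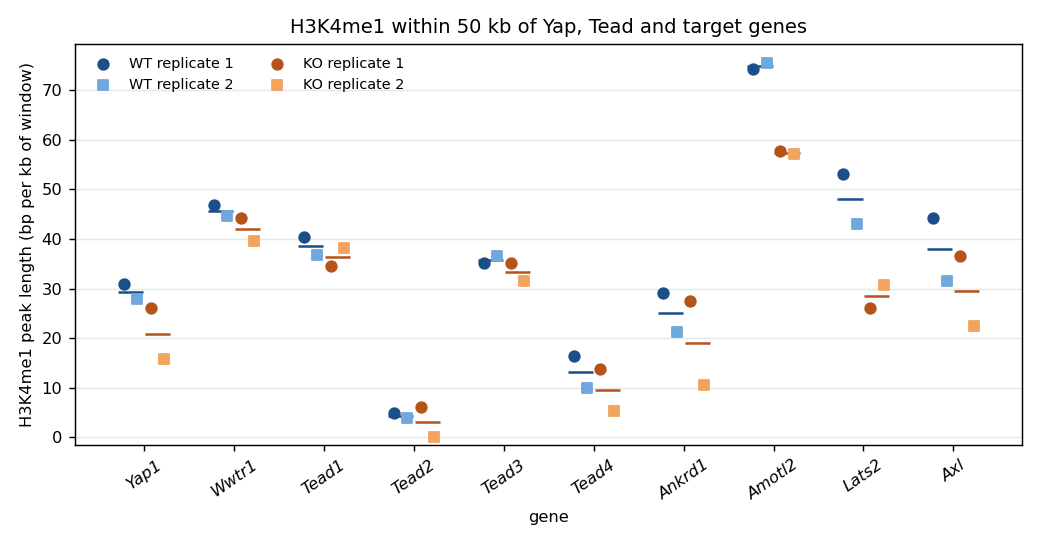
H3K4me1 peak length within 50 kb of each gene, in bp per kb of window (vertical axis), with 1 point per library and a bar at the mean of each genotype (n = 2). Amotl2 is the highest in both genotypes and Tead2 the lowest, and the points of Yap1, Wwtr1, Amotl2 and Lats2 do not overlap between genotypes.

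Covered H3K4me1 length in that window was lower in both KO libraries at 4 genes, Yap1, Wwtr1, Amotl2 and Lats2, and higher at none. Over 18416 genes measured, 34.3% were lower and 12.1% higher, so 4 of 10 is near the background. A peak in all 4 libraries was found at 9 genes, all but Tead2, against 83.4%. With lists of equal length 6 genes were lower, against 32.3%, as Tead2 and Axl joined the 4. Lats2 had the lowest KO share, with 8311 and 6751 bp in WT and 4065 and 4825 bp in KO. That was 59.0% of WT (7531 ± 1103 against 4445 ± 537 bp, SD, n = 2 each, exact permutation p = 0.33), below the value of all but 22% of 17908 genes with WT coverage. Amotl2 had 8646 and 8795 bp in WT and 6713 and 6643 bp in KO, 76.6% of WT with closely matched replicates. Yap1 had 5338 and 4807 bp in WT and 4502 and 2714 bp in KO, 71.1% of WT. Wwtr1 had 10307 and 9837 against 9747 and 8727 bp, 91.7%. The exact permutation p was 0.33 for each.

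At the other 6 genes the genotypes overlapped. Axl had 5873 and 4185 bp in WT and 4836 and 2980 bp in KO, and Ankrd1 3142 and 2288 against 2971 and 1148 bp (exact permutation p = 0.667 each). Tead4 had 2850 and 1717 bp in WT and 2390 and 904 in KO. Tead3 (93% of WT) and Tead1 (94.1%) were close to level. KO replicate 2 had the lowest value at 8 of the 10 genes, and the share of all genes lowest in that library was not counted. Its whole list also covered the least, 32.8 Mb against 36.8 to 41.2 Mb in the other H3K4me1 libraries. The part of this in the results was not tested. The median KO share over the 10 genes was 76.2% and over all genes with WT coverage 83.5%. None of the genes lies on chromosome 10, which held 1.25 times as large a share of H3K4me1 peaks in KO as in WT. On the chromosomes that hold them this ratio was 0.903 (chromosome 19, Ankrd1) to 0.999 (chromosome 17, Tead3).

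Merging the 4 lists wherever peaks touched gave 147 H3K4me1 regions within 50 kb of the genes, none shared between them. Of these, 46 (31.3%) had a peak in all 4 libraries, against 28.7% of 94400 regions in the genome. WT-only were 5 (3.4%, against 6.63%) and KO-only 6 (4.08%, against 5.37%), and 64 (43.5%, against 36.6%) were in 1 library alone. Regions held by all 4 libraries numbered 12 at Tead1, 8 at Wwtr1, 6 at Amotl2, 5 at Lats2, 4 at Axl, 3 each at Yap1, Tead3 and Ankrd1, 2 at Tead4 and 0 at Tead2. Of the 46, 23 lay over the named gene. None of the 32 at genes with a listed start was centred within 1 kb of it.

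Some of the constant regions ranked high in every library. The best at Axl was at 25802202 to 25803209, over the neighbouring gene Cyp2s1 and 14.0 kb upstream of the Axl start, at or above the 95.8th percentile in all 4 libraries (−log10 q 17.0, 12.4, 16 and 15.5 in WT 1, WT 2, KO 1 and KO 2). The best at Amotl2, at 102715044 to 102716432, was 2.07 kb upstream of the start and at or above the 95.4th percentile (13.0, 18.6, 12.2 and 13.4). Lats2 had one inside the gene at 57729811 to 57731361 (lowest percentile 71.3), Tead1 at 112867929 to 112869160 (71.3) and Yap1 at 7959960 to 7961591 (42.7). Those of Wwtr1 (57448035 to 57448661, 69.1), Tead3 (28394439 to 28395423, 67.0), Tead4 (128341722 to 128342866, over Tulp3, 34.5) and Ankrd1 (36150568 to 36151214, 25.3) lay outside the gene.

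The regions that parted the genotypes were few and mostly weak. The best-ranked WT-only regions lay 2.67 kb from the end of Yap1, at 7928209 to 7929328 (−log10 q 7.33 and 8.98 in WT), 4.31 kb from the end of Lats2, at 57684819 to 57685351 (7.43 and 6.08), and inside Yap1 at 7950130 to 7950804 (5.74 and 7.33). The best KO-only region was 21.7 kb from Amotl2, at 102755141 to 102755592 (7.43 and 7.09 in KO). The next KO-only regions lay inside Yap1 at 7967380 to 7968244 (4.80 and 4.33) and inside Tead3 at 28343835 to 28344438 (4.38 and 4.46). Yap1 thus held regions of both kinds. Where a library lists no peak, the site missed the authors' q cutoff, and a weaker signal may still be there.

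**Figure D5:**
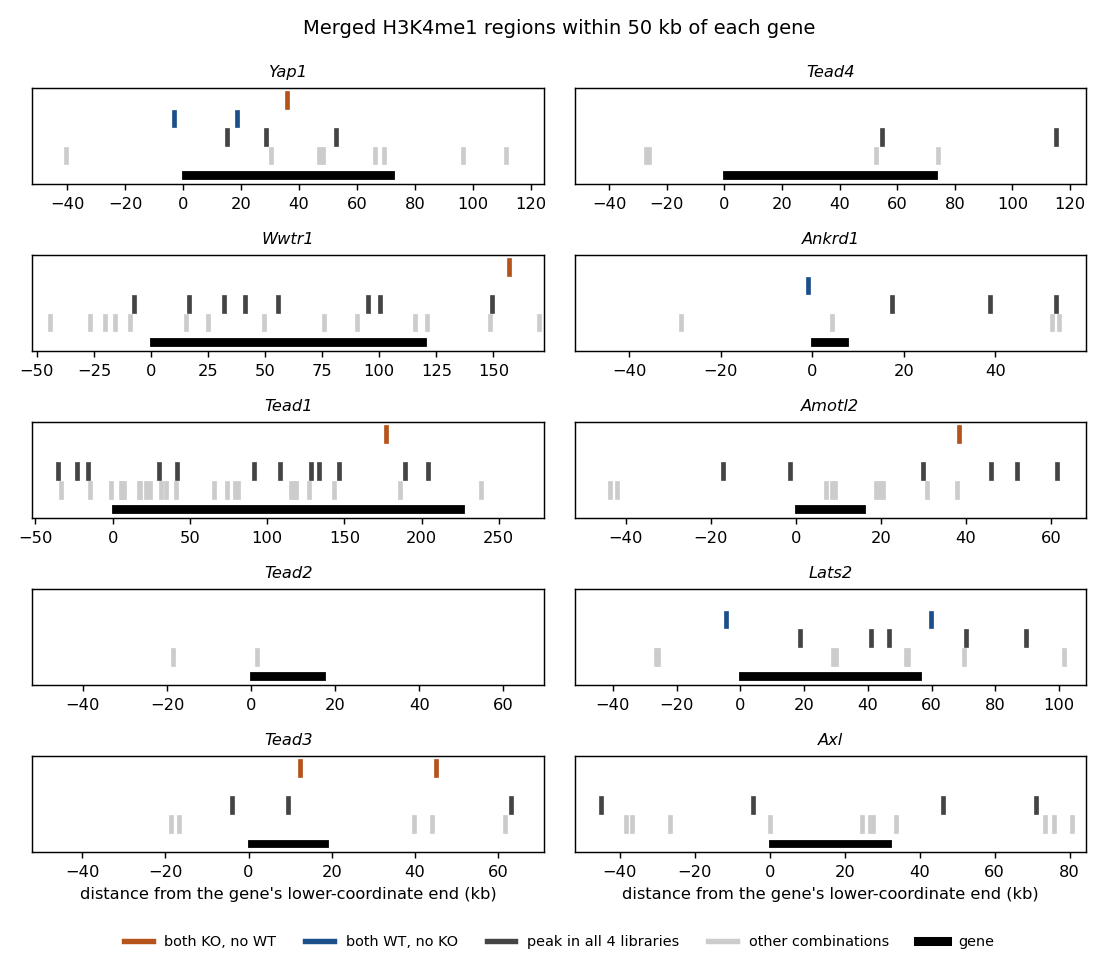
Merged H3K4me1 regions within 50 kb of each gene by distance from the gene's lower-coordinate end (kb, horizontal axis; the scale differs by panel), in rows by the libraries that hold them, with the gene as a black bar. Of 147 regions, 90 are in other combinations of libraries, 46 are in all 4, and WT-only and KO-only regions number 5 and 6.

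Of 29 merged H3K4me3 regions within 50 kb of the genes, 14 were in all 4 libraries (48.3%, against 46.8% of 17842 in the genome), 8 were WT-only (27.6%, against 21.7%) and 0 were KO-only (against 0.056%). Of the 8, 3 lay over the gene named, 2 at Wwtr1 and 1 at Tead3. The other 5 lay outside Tead1, Tead2, Tead3, Ankrd1 and Amotl2, with a lower WT percentile of 1.68, 17.2, 1.43, 3.36 and 15.7 in that order. The one near Tead2 overlapped the neighbouring gene Kash5.

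MLL4 had no peak within 50 kb of any of the 10 genes in any library. The lists were short: the WT libraries had 60 and 69 peaks, the KO libraries 49 and 40. Only 0.0971 to 0.513% of all genes had an MLL4 peak in that window. The nearest was 198 kb from Tead2, in WT replicate 1.

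The rest of the pathway was followed in 44 further genes, of which 42 had H3K4me3 over the gene plus 1 kb in some library. Covered length was lower in both KO libraries at 41 of them and higher at 0, again close to the 93.5 and 0.0301% of all genes. All 4 libraries had a peak at 28 of the 42, against 68.1% of genes measured. Among 23 genes of the kinase cassette and its adaptors, 19 of 23 measured had a peak in all 4 libraries. WT-only was Wwc1, which encodes the Lats activator Kibra, with 1350 and 1250 bp in WT. Among 17 further target genes, 7 of 16 measured had it in all 4 libraries. The difference between these lists was not tested. WT-only was Igfbp3, an insulin-like growth factor binding protein gene, with 2099 and 1234 bp. Of the 4 Vgll cofactor genes, whose products compete with Yap for Tead, 2 had a peak in all 4 libraries.

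For H3K4me1 over the gene plus 1 kb, 38 of the 44 had a peak and 30 of these had it in all 4 libraries, against 51.8% of genes measured. It was lower in both KO libraries at 13 of the 38, against 26%, and higher at 2, against 12.4%. The 2 are named after their values were seen: Map4k4, a kinase that phosphorylates Lats, had 2470 and 1260 bp in WT and 2994 and 2767 bp in KO. Igfbp3 had 0 and 378 bp in WT and 816 and 813 bp in KO. Mob1a, a Lats cofactor gene, was WT-only with 550 and 292 bp. Ccn1 and Ccn2, the targets most used as Yap readouts, are named after their values were seen. Ccn1 had no peak of either mark in any library. Ccn2, on chromosome 10, had 1409 and 1239 bp of H3K4me3 in WT and 640 and 463 bp in KO. Its H3K4me1 was 187 and 0 bp in WT and 546 and 131 bp in KO, so those groups overlapped.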

How the data were processed

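Cut & Run peak lists from 12 libraries were analysed. Per the submitters' processing notes the build was mm10, and HOMER 4.10, deepTools, SAMtools 1.5, Bowtie2, MACS2 and bedtools are named with no role. Per the file headers, the authors called narrow peaks for each library alone with MACS2 2.1.0.20150731 at a q cutoff of 0.01, against a local background over 10000 bp, without a control, keeping 1 or 2 duplicate fragments per position. Each deposited list gives the pileup signal at the summit (unscaled fragments), the −log10 of the p-value and of the q-value, and a ratio (fold) over the local background. These are the authors' values per peak and served to order or select peaks inside the same list. An alternative setting also applied the same −log10 q cutoff to every list. Depth and enrichment affect which sites pass.

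Groups and replicate numbers came from the titles. Peaks on chromosomes 1 to 19 and X were intersected (at least 1 bp) with RefSeq genes of GRCm38.p6 plus 1 kb or 50 kb, with Python 3.11.15 and pandas 2.3.3, and covered length was clipped to the window. Exons and introns were not distinguished. The table gives no strand, which was taken from the promoter table. Percentiles rank a peak within its list by −log10 q. Peak lists hold no counts per gene, so no count model was fitted. The calling steps were tested on simulated peaks. All 10 genes were named, and of the other pathway genes those with a peak in both libraries of 1 genotype only; Map4k4, Ccn1 and Ccn2 were added after their values were seen. Regions named were the 3 best WT-only and KO-only and the best constant one per gene. The members and lists were chosen with earlier results of these data known. Alternatives covered peak strength, list length, windows, overlap, replicate pairing and each library left out.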

Additional observations from a re-analysis of the deposited data

How the results depend on the processing

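Requiring a −log10 q of at least 10 left 8 genes WT-only for H3K4me3 and 0 with it in all libraries, 1 gene with lower and 0 with higher H3K4me1 over the gene plus 1 kb, and 2 WT-only and 0 KO-only H3K4me1 regions. For H3K4me3 this cutoff lies above the list medians of KO (6.4 and 6.94) and below those of WT (33.2 and 17.5). It therefore drops most KO peaks across the genome, and the count of 8 cannot be read as a result about these genes. The share of all genes was not counted at this cutoff. With the same cutoff, the KO minus WT length of H3K4me1 within 50 kb turned to 482 bp at Yap1 and 226.5 bp at Tead1 and was 0 at Ankrd1 and Tead2, as was that of H3K4me3 at Ankrd1. At equal list length no gene was WT-only for H3K4me3 (0), Ankrd1 H3K4me3 was 0, and Tead1 H3K4me1 turned to 110 bp. KO-only H3K4me1 regions numbered 3 within 20 kb and 10 within 100 kb, and WT-only regions 13 when peaks had to cover 50% of a region. Leaving out 1 library at a time, WT-only regions ran from 10 to 29 (29 without WT replicate 2, 20 without WT replicate 1, 10 and 12 without KO replicate 1 and 2) and KO-only regions from 6 to 27 (27 without KO replicate 2, 15 without KO replicate 1, 11 without WT replicate 1), since a call then rests on fewer libraries. WT-only H3K4me3 genes ran from 1 to 2 (2 without KO replicate 2 or WT replicate 2). Genes with lower H3K4me1 ran from 3 to 8 over the gene plus 1 kb (8 without WT replicate 2, 6 without KO replicate 1) and from 5 to 9 within 50 kb (9 without KO replicate 1, 8 without WT replicate 2). Genes with higher H3K4me1 ran from 1 to 2 and from 0 to 1, each higher without KO replicate 2. Without that library H3K4me1 within 50 kb turned sign at Ankrd1 (range −1567 to 256 bp), Tead2 (−511.5 to 213.5) and Tead4 (−1379.5 to 106.5). Ankrd1 H3K4me3 ran from −418 to 0 bp, 0 without WT replicate 1. Apart from where the alternative itself removes peaks or libraries, the cause was not tested. The labels do not say if libraries with the same replicate number were made together. Over genes, the replicate 1 minus 2 differences of the genotypes correlated at −0.0181 for H3K4me3. For H3K4me1 the correlation was 0.214 over the gene plus 1 kb and 0.151 within 50 kb. With the replicate number as a block, the H3K4me1 difference at Lats2 was −3086 bp (exact sign-flip permutation p = 0.5, the smallest possible), so no call was possible with it or without it.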

Other observations

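Promoters of neighbouring genes inside the same 50 kb windows gave values to set beside those of the 10 genes within the same library. Across libraries the −log10 q is not comparable, since its median over the whole H3K4me3 list was 33.2 and 17.5 in WT and 6.4 and 6.94 in KO. Near Lats2, the H3K4me3 region over Xpo4, a nuclear transport gene, ranked above the Lats2 region in every list: −log10 q was 65.2 against 27.4 in WT replicate 1, 26.9 against 16.5 in WT replicate 2, 13.1 against 3.25 in KO replicate 1 and 7.28 against 5.65 in KO replicate 2. Near Axl, the region over Ccdc97 likewise ranked above the Axl promoter in every list, with 75.8 against 57.8, 36.2 against 31.0, 6.91 against 3.89 and 9.79 against 4.93 in the same order. Other neighbours went differently. The region over Hnrnpul1, next to Axl, ranked below the Axl promoter in WT (39.3 and 16.9) and above it in KO (7.28 and 9.48). Near Tead3, the region over Rpl10a ranked below the constant Tead3 region in every list (26.7, 9.73, 3.75 and 4.51 against 41.9, 20.2, 6.97 and 5.18). The one over Fance ranked above it except in KO replicate 1 (6.24). Near Ankrd1, Rpp30, which encodes a subunit of ribonuclease P, had an H3K4me3 peak in all 4 libraries, while Ankrd1 had one in WT replicate 1.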
